A study of Mus musculus with 8 samples.

Results

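The 54 genes described here act in mitosis and chromosome segregation and were chosen by name from the 24015 genes of the count table as mitotic kinases, kinesins, kinetochore, condensin and cytokinesis genes. Their RNA was measured in cells sorted from the aorta-gonad-mesonephros region with the vitelline and umbilical arteries (AGM+VU) of C57BL/6 mouse embryos at E11.5. Hematopoietic clusters, the budding groups of nascent blood cells, were gated by flow cytometry on VE-Cadherin and Kit without Ter119 (Ter119- VE-Cadherin+ c-Kit+), and the endothelium that lines the vessel was sorted as VE-Cadherin+ cells lacking Ter119, Kit, CD41 and CD45. Each cell type came from wild type and from mutant Sl/Sl embryos, the latter being homozygous for a germline loss of the Kit ligand gene Kitl in every cell, with no treatment in any group. Each of the 4 groups (clusters and endothelium of either genotype) had 2 libraries of 100 cells, sorted from pools of embryos of 1 genotype.

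A cell that enters mitosis condenses its chromosomes, attaches each pair of sister chromatids to the spindle through the kinetochores, waits at the spindle assembly checkpoint until all are attached, separates them in anaphase and divides its cytoplasm. Most genes of this machinery are transcribed in G2 and M phase, so their RNA in a bulk sample is known to follow how many of the cells are in those phases. In a sample of 100 cells, more cells in mitosis and more mitotic RNA in each cell cannot be told apart, and counts give no measure of the cell cycle of a single cell.

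The libraries held between 8933236 and 13428214 counts on genes, with 12844 to 14309 genes detected, and the 2 libraries of a group correlated with Spearman coefficients of 0.917 to 0.923 across genes. All 54 members were over 3 counts in every library and all were among the 13908 genes tested. Their lowest count was 5, for Kif18b in wild type endothelium replicate 1. Kitl lies in the region deleted in Sl/Sl embryos. It was counted 1250 and 923 times in wild type endothelium against 6 and 2 in the Sl/Sl endothelium. In the clusters its counts were 110 and 0 in wild type against 1 and 3 in Sl/Sl, so there Kitl checks the genotype labels only weakly. Kit, the cluster sort marker, had 2937 to 4392 counts in the clusters and 538 to 1065 in the endothelium. Ptprc, which encodes CD45, had 1294 to 3908 counts in the clusters and 6 to 16 in the endothelium, so the libraries separated as their sort labels state. Cdh5, which encodes VE-Cadherin, was present in all 8, with 154 to 2531 counts in the clusters and 4480 to 8240 in the endothelium.

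The mitosis genes were expressed in all 4 groups, and wild type endothelium had the lowest level. Summed over the 54 members, RPKM (reads per kilobase of exon, scaled to the total counts on genes) was 4561 and 5187 in the libraries of wild type clusters, 5424 and 4359 in Sl/Sl clusters, 2092 and 3279 in wild type endothelium, and 3954 and 3973 in the Sl/Sl endothelium. The summed RPKM of wild type endothelium was 55.1% of that of wild type clusters as a ratio of group means, and that of Sl/Sl endothelium was 81.3%. Both libraries of wild type endothelium were below the other 6, whereas the 2 genotypes of the clusters overlapped. The spread was unequal, with an SD of 839 in wild type endothelium against 13.4 in the Sl/Sl endothelium (n = 2 each). Members took 0.456% and 0.691% of all counts in wild type endothelium, 0.877% and 0.829% in the Sl/Sl endothelium, and 0.983% to 1.15% in the clusters.

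**Figure D1:**
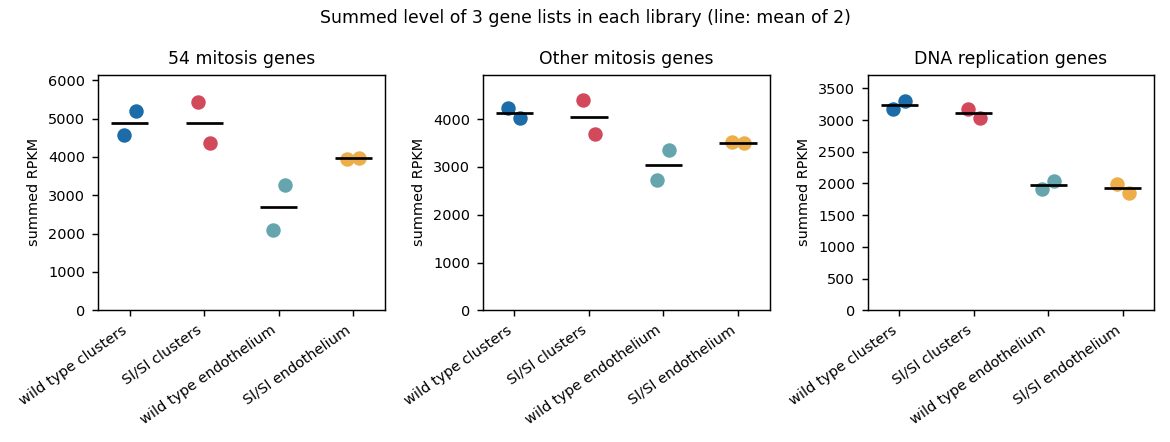
Summed RPKM (y axis, from 0) of the 54 mitosis genes, of 81 other mitosis genes and of 38 DNA replication genes in each library (points) of the 4 groups (x axis), with the mean of 2 libraries as a line. For the 54 mitosis genes the wild type endothelium libraries lie at 2092 and 3279 and all others from 3954 upward, whereas the DNA replication genes show no such gap between the endothelium genotypes.

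Single members followed the same order. Wild type endothelium had the lowest mean RPKM of the 4 groups for 49 of the 54 members. The 5 exceptions were Kif2c, Cdc25c and Ncapd2, lowest in Sl/Sl endothelium, Plk1, lowest in Sl/Sl clusters, and Pttg1, lowest in wild type clusters. The highest group mean was in wild type clusters for 29 members, in Sl/Sl clusters for 18 and in Sl/Sl endothelium for 7, and for none in wild type endothelium. By library, wild type endothelium replicate 1 was the lowest of the 8 for 37 members and replicate 2 for 6, so the low level of the group lay more in the first library than in the second.

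**Figure D2:**
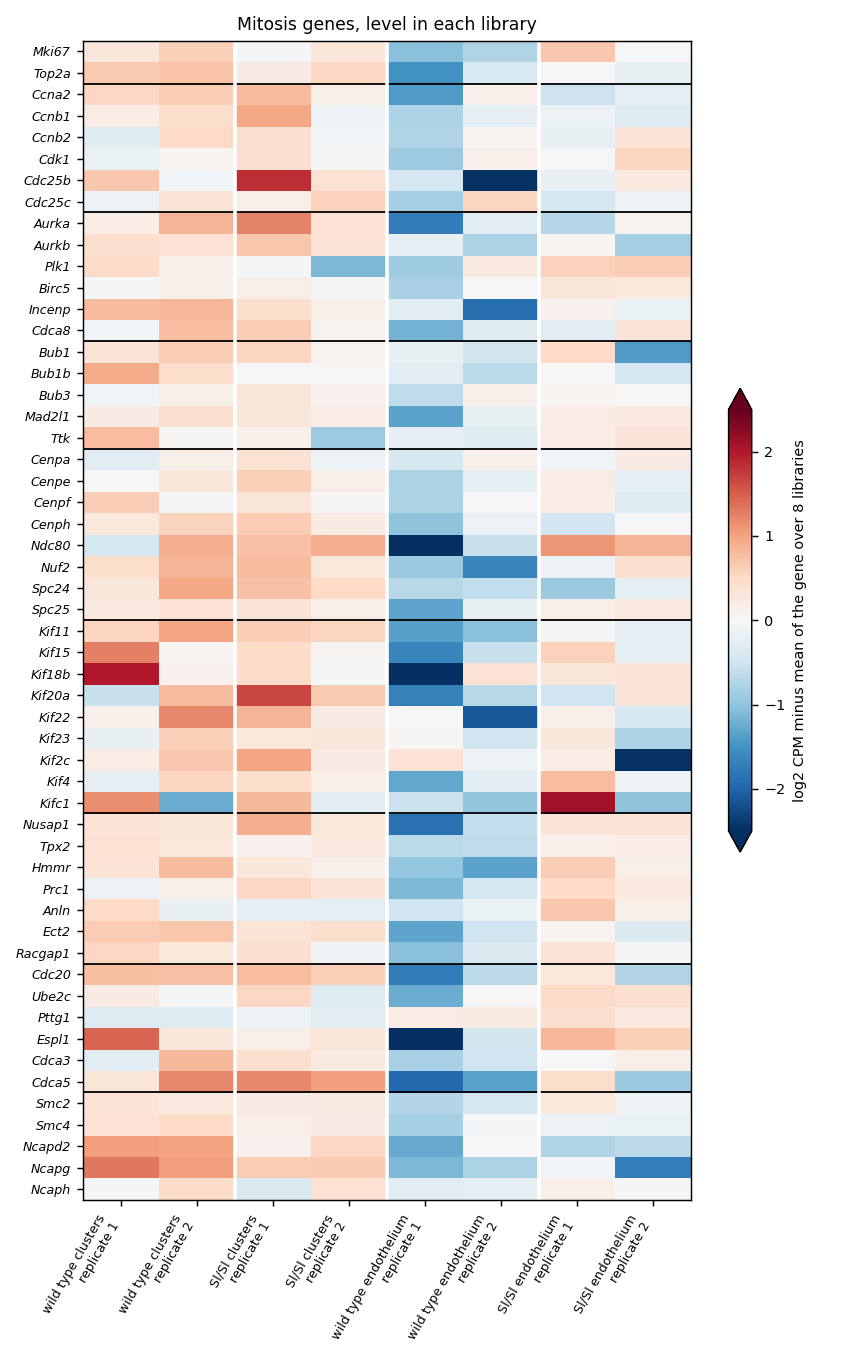
Level of each of the 54 mitosis genes (rows, grouped by role with black lines) in each of the 8 libraries (columns) as log2 CPM (library-scaled counts, TMM, prior count 2) minus the mean of the gene over the 8 libraries, red for higher and blue for lower, with the colours capped at both ends. The wild type endothelium columns are mostly blue, replicate 1 most of all, where 37 members had their lowest value.

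Levels between members, compared per length of exon, spanned a wide range. The highest mean RPKM over the 8 libraries belonged to Ube2c (529), the ubiquitin conjugating enzyme of the anaphase promoting complex, then to Ccnb2 (355), a B-type cyclin, and Bub3 (304), a checkpoint protein that docks on kinetochores. Ube2c had an RPKM of 620 and 493 in wild type clusters, 727 and 426 in Sl/Sl clusters, 208 and 470 in wild type endothelium, and 664 and 624 in the Sl/Sl endothelium. Its Sl/Sl endothelium libraries were thus within the range of the clusters. The lowest mean RPKM belonged to Kifc1 (2.17), Kif18b (2.82) and Cdc25b (3.17). Values of these 3 were erratic between libraries of a group, as in Kifc1, a minus-end directed kinesin, with 3.80 and 0.617 in wild type clusters and 6.48 and 0.675 in Sl/Sl endothelium.

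Cdk1 is the kinase that drives entry into mitosis, and cyclins A2, B1 and B2 activate it. Cdk1 (mm9, chromosome 10, 68799383 to 68815660) had an RPKM of 121 and 135 in wild type clusters, 169 and 131 in Sl/Sl clusters, 65.3 and 130 in wild type endothelium, and 119 and 171 in the Sl/Sl endothelium. Only wild type endothelium replicate 1 stood below the rest for Cdk1. Ccnb1, cyclin B1 (mm9, chromosome 13, 101548694 to 101556441), had 115 and 132, 189 and 94.1, 54.5 and 76.3, and 81.6 and 70.04 in the same order of groups, so that its endothelium libraries were below its cluster libraries in both genotypes. Ccna2, cyclin A2, had 89.9 and 90.6, 101 and 67.8, 21.3 and 59.6, and 38.6 and 45.7 in that order, again with every endothelium library below every cluster library. Cenpa, the histone H3 variant that marks the centromere, had 264 and 332 in wild type clusters, 393 and 284 in Sl/Sl clusters, 220 and 306 in wild type endothelium, and 271 and 319 in the Sl/Sl endothelium. For Cenpa all 4 groups overlapped.

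Members shared promoter letters as well as a group order. Many G2 and M phase genes carry a cell cycle genes homology region (CHR), bound by the MuvB core of the DREAM complex, and CCAAT boxes, bound by NF-Y. In the RefSeq promoter windows of GRCm38.p6 (250 bases before to 50 after the start of a gene), 46 of the 54 members had an entry. The others were Ccna2, Cdc25c, Aurkb, Incenp, Spc24, Kif20a, Tpx2 and Smc4. The windows were searched on both strands for the CHR core letters TTTGAA or TTTAAA and for CCAAT, a match being counted also where it shared bases with a match of the other motif, and a gene was counted where any of its windows held the letters. CHR letters stood in 38 of the 46 (82.6%), CCAAT in 35 (76.1%) and both in 32 (69.6%). Of the 10399 tested genes with a window, 23% held CHR letters, 42.6% CCAAT and 10.8% both, and of all 27025 genes with a RefSeq window 30.6%, 41.1% and 13.4%. With the narrower window of 150 bases before the start, both were found in 16 members (34.8%), 4.09% of tested genes and 4.91% of all genes. A match of letters is a description of the window and not a measured binding site.

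Members were chosen for display only where CCAAT letters lay a short way before the CHR letters nearest the start. Their close spacing was thus a condition of the choice and not a result. The following stretches lie upstream of 5 such members. They are from RefSeq (GRCm38.p6), written 5′ to 3′ on the strand of the gene in lower case, with capitals for CHR letters (TTTGAA, its reverse TTCAAA, or TTTAAA) and CCAAT letters (CCAAT or its reverse ATTGG). They lie at chr7:135716467-135716572 (minus strand, Mki67), chr11:99024202-99024292 (minus, Top2a), chr10:69352917-69352997 (minus, Cdk1), chr13:100786518-100786590 (minus, Ccnb1) and chr5:30666772-30666879 (plus, Cenpa).
Mki67: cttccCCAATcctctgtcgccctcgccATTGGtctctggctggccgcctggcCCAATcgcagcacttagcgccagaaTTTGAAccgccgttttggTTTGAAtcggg
Top2a: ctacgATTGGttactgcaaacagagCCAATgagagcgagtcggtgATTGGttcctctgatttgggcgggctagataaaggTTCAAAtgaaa
Cdk1: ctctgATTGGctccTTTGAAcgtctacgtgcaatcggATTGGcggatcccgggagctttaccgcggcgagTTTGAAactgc
Ccnb1: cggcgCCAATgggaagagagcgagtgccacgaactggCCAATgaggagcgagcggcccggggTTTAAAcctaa
Cenpa: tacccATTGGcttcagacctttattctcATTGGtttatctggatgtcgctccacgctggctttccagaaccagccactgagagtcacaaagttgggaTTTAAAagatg
In wild type endothelium against wild type clusters, compared below, the log2 fold changes of these 5 in the order above were -1.34, -1.53, -0.26, -0.79 and -0.053. All 5 were negative, as were 53 of all 54 members, so the shared sign is not particular to them. Whether these values differed between the 5 genes was not tested.

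Wild type endothelium against wild type clusters asks how the vessel wall differs from the blood cells budding from it. The mitosis genes were lower in the endothelium, with 14 of 54 passing at an adjusted p under 0.1 (edgeR quasi-likelihood F-test, Benjamini-Hochberg over 13908 genes) and none passing in the other direction. Among all genes tested, 3.68% were lower by this rule and 4.56% higher. The median log2 fold change of members was -0.995 against -0.0032 for all genes, and 53 of 54 were negative. By TMM-scaled CPM, used for every count of groups without overlap, both endothelium libraries were below both cluster libraries for 39 members, beside 25.6% of all genes tested. Markers of other cells differed between these libraries too. Of the mesenchymal markers 0 of 11 passed, with 5 positive and 6 negative values from -7.13 to 1.18 on the log2 scale, and they summed to an RPKM of 583 in wild type endothelium replicate 1, where 37 members had their lowest value, against 50.3 in replicate 2. Of the macrophage markers 5 of 11 passed as lower in endothelium (median log2 fold change -5.93), and of the erythroid markers none of the 7 tested passed. Markers of the sorts themselves separated, with 10 of 15 endothelial and 13 of 15 hematopoietic markers passing. The part of other cells in the lower level of the mitosis genes was not tested.

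The kinesin Kif11 (mm9, chromosome 19, 37450893 to 37496349), which slides spindle microtubules apart, had the smallest p of the 54. Its RPKM was 27.7 and 35.9 in wild type clusters and 6.76 and 7.99 in wild type endothelium, without overlap, and its log2 fold change was -1.99 ± 0.34 (SE) with an adjusted p of 0.0134 (edgeR). Of the other 8 kinesins none passed. Cdca5, or sororin, which protects cohesion between sister chromatids, had 40.4 and 72.8 in clusters and 7.69 and 11.3 in endothelium, a log2 fold change of -2.45 ± 0.55 with an adjusted p of 0.0389 (edgeR), the largest fall among the 14. Cdc20, the activator of the anaphase promoting complex, had 139 and 131 against 22.4 and 45.9 (log2 fold change -1.85 ± 0.44, edgeR adjusted p = 0.0470).

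Among spindle genes, Hmmr (mm9, chromosome 11, 40514890 to 40546939), a hyaluronan receptor that also binds spindle microtubules, had an RPKM of 26.1 and 33.9 in wild type clusters and 9.54 and 7.13 in wild type endothelium, and fell by 1.73 on the log2 scale (SE 0.37, edgeR adjusted p = 0.0327). Nusap1, Tpx2 and Ect2, which bundle microtubules, nucleate them and trigger the cleavage furrow, also passed, so that 4 of the 7 spindle and cytokinesis members did. At the kinetochore, Nuf2 (mm9, chromosome 1, 171428065 to 171461595), a subunit of the Ndc80 complex that grips microtubules, had 45.0 and 56.8 against 15.8 and 9.19 (log2 fold change -1.91 ± 0.42, edgeR adjusted p = 0.0375). Spc24 of the same complex passed too, and the other 6 kinetochore and centromere members did not.

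Mki67 (mm9, chromosome 7, 142881471 to 142908062), which coats mitotic chromosomes and is the common marker of cycling cells, had an RPKM of 26.0 and 30.5 in wild type clusters and 9.38 and 11.1 in wild type endothelium. Its log2 fold change was -1.34 ± 0.31 with an adjusted p of 0.0459 (edgeR). Top2a (mm9, chromosome 11, 98854261 to 98885503), the topoisomerase that untangles sister chromatids, had 100 and 99.2 against 20.3 and 42.5 (log2 fold change -1.53 ± 0.35, edgeR adjusted p = 0.0403). Of the condensin subunits, which compact chromosomes, Ncapg and Ncapd2 passed and Smc2, Smc4 and Ncaph did not. Of the checkpoint genes only Bub1b passed, with 60.4 and 40.8 against 23.6 and 17.4. None of the 6 genes of Cdk1, its cyclins and the Cdc25 phosphatases and none of the 6 mitotic kinase and chromosomal passenger genes passed. Aurkb, the passenger kinase, had 84.4 and 77.4 against 48.5 and 32.1, and Plk1, a kinase of spindle assembly, 36.5 and 27.2 against 12.7 and 27.1. The count of 14 rested partly on 2 libraries, being 5 without wild type clusters replicate 2 and 5 without wild type endothelium replicate 1.

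Sl/Sl endothelium against Sl/Sl clusters puts the same question in the mutant. For Sl/Sl endothelium against Sl/Sl clusters none of the 54 members passed by edgeR, where 1.84% of all genes were lower and 0.985% higher, and 1 was lower by DESeq2, where 6.65% of all genes were. At an unadjusted p under 0.05, 4 members were lower, beside 7.83% of all genes. Both endothelium libraries lay below both cluster libraries for 22 members, beside 24.4% of all genes. The median log2 fold change of members was -0.22 against -0.066 for all genes, with 14 members positive. Spc24, the member called by DESeq2, had an RPKM of 241 and 216 in Sl/Sl clusters and 71.9 and 114 in Sl/Sl endothelium, with a log2 fold change of -1.16 ± 0.33 and an edgeR adjusted p of 0.144. Mki67 had 19.4 and 25.9 against 30.5 and 18.4, and Hmmr 23.6 and 22.4 against 28.1 and 20.1, with overlap in both. Whether this comparison differed from that in wild type is given by the interaction below.

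Averaged over the genotypes, 17 members were lower in endothelium than in clusters and 1 was higher, by the same edgeR rule that 8.12% of all genes passed as lower and 8.48% as higher. This average used the libraries of both preceding comparisons and adds no new samples. Kif11 had a log2 fold change of -1.34 ± 0.23 (edgeR adjusted p = 0.00780), Spc24 one of -1.24 ± 0.23 (edgeR adjusted p = 0.0114) and Cdca5 one of -1.84 ± 0.38 (edgeR adjusted p = 0.0159). Spc24 had 188 and 286 in wild type clusters and 87.4 and 88.5 in wild type endothelium, so that it was lower in endothelium in both genotypes. Ncapg, a condensin subunit, had 39.6 and 31.4 in wild type clusters, 23.4 and 24.8 in Sl/Sl clusters, 6.66 and 8.04 in wild type endothelium, and 13.6 and 4.24 in the Sl/Sl endothelium (log2 fold change -1.72 ± 0.37, edgeR adjusted p = 0.0197). Ncapd2 had 40.3 and 37.3, 19.8 and 27.9, 7.39 and 17.2, and 10.3 and 10.8 in that order (log2 fold change -1.28 ± 0.31, edgeR adjusted p = 0.0301). For both condensin genes all 4 endothelium libraries were below all 4 cluster libraries, as for 14 of the 54 members and 1331 of the 13908 genes tested.

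The one member that was higher in endothelium was Pttg1, or securin, which holds separase in check until anaphase. Its RPKM was 98.4 and 93.6 in wild type clusters, 106 and 101 in Sl/Sl clusters, 128 and 126 in wild type endothelium, and 145 and 127 in the Sl/Sl endothelium, a separation without overlap. Of the 13908 genes tested, 1406 were likewise higher in every endothelium library than in any cluster library. Its log2 fold change was small, 0.53 ± 0.17, with an edgeR adjusted p of 0.0825. The count of 18 members in this average was 8 without Sl/Sl clusters replicate 1, 9 without Sl/Sl endothelium replicate 2, 11 without wild type clusters replicate 2 and 11 without wild type endothelium replicate 1. In each of these 4 fits the members called were all lower, so Pttg1 was no longer among them.

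**Figure D3:**
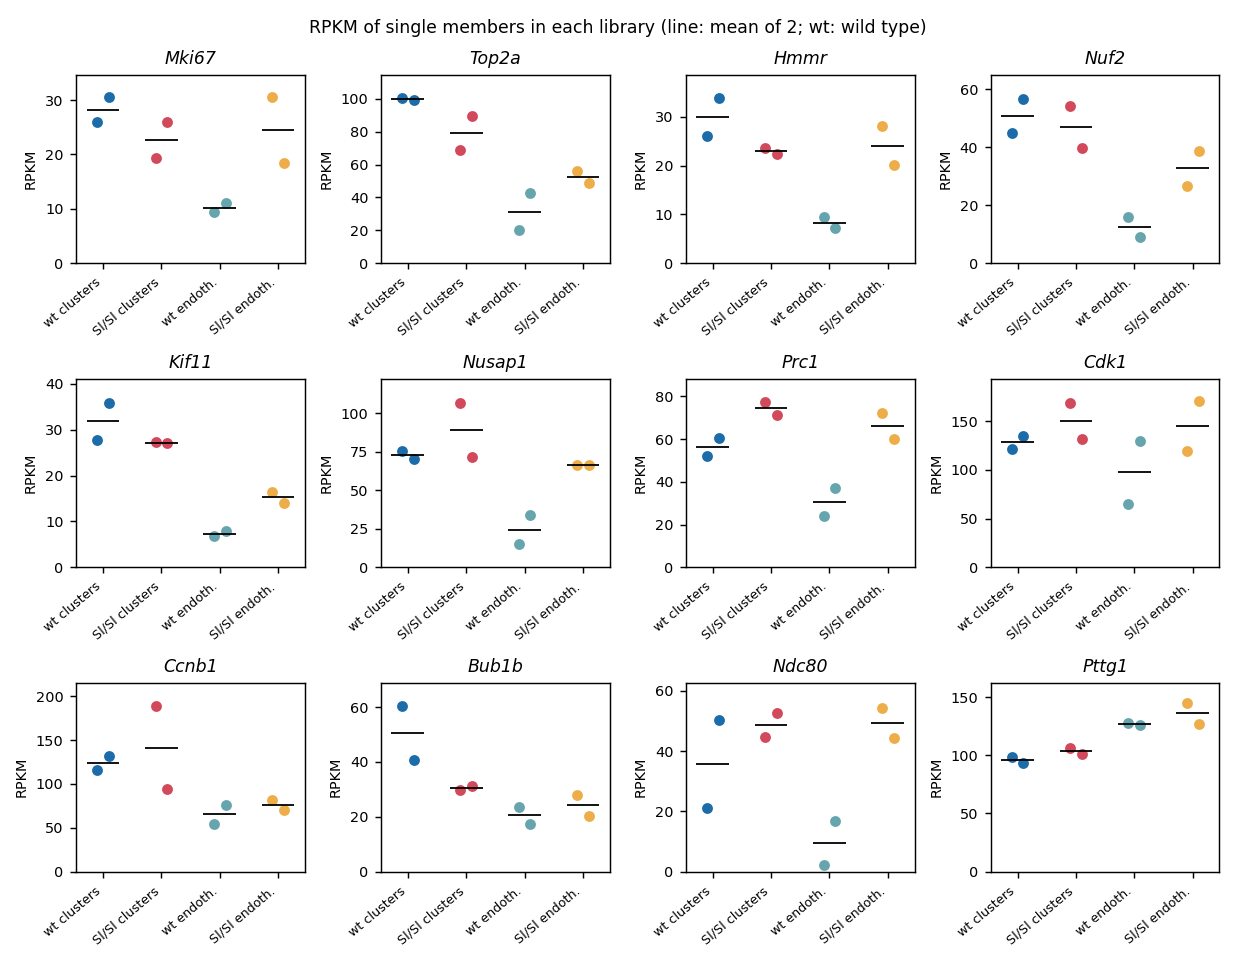
RPKM (y axis, from 0) of 12 mitosis genes in each library (points) of the 4 groups (x axis; wt, wild type), with the mean of 2 libraries as a line. Hmmr, Nuf2, Kif11 and Mki67 have their lowest values in wild type endothelium, whereas Pttg1 is higher in all 4 endothelium libraries than in the 4 cluster libraries.

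In the endothelium, which the study analysed as a control for the clusters, the mitosis genes had higher values in Sl/Sl than in wild type embryos for 51 of 54 members, but none passed the test. The median log2 fold change of members was 0.72 against -0.0014 for all genes tested. With edgeR 0 of 54 passed at an adjusted p under 0.1, as did 0% of all genes. At an unadjusted p under 0.05, 15 members were higher and 0 lower, beside 1.83% of all genes higher and 2.34% lower. With DESeq2 3 members passed, all higher, beside 0.856% of all genes in either direction. Both Sl/Sl libraries were above both wild type libraries for 30 members and below them for 0, beside 13.5% and 14.9% of all genes. All of these counts come from the same libraries, so the members are not independent replicates of the genotype.

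Hmmr had the smallest p of the members, with an RPKM of 9.54 and 7.13 in wild type endothelium, and 28.1 and 20.1 in the Sl/Sl endothelium. Its log2 fold change was 1.55 ± 0.37 (edgeR adjusted p = 1, DESeq2 adjusted p = 0.0567). Mki67 had 9.38 and 11.1 against 30.5 and 18.4 (log2 fold change 1.27 ± 0.31, DESeq2 adjusted p = 0.0528). For both genes the Sl/Sl endothelium values lay within or near the range of the cluster libraries. Nusap1, the third member called by DESeq2, had 14.8 and 34.1 against 66.6 and 66.1 (log2 fold change 1.45 ± 0.41, DESeq2 adjusted p = 0.0852). Prc1, which bundles the central spindle in anaphase, had 24.1 and 37.0 against 72.2 and 59.9 (log2 fold change 1.12 ± 0.31). For these 4 members the genotypes did not overlap.

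Spindle and cytokinesis genes were alike in direction. All 7 were higher in both Sl/Sl endothelium libraries than in either wild type one, as were 13.5% of all genes tested. Of the 7, 4 (Hmmr, Prc1, Nusap1 and Tpx2) were higher at an unadjusted edgeR p under 0.05, beside 1.83% of all genes. These counts come from the same libraries, so they are not independent. Summed over the 7, RPKM was 99.3 and 144 in wild type endothelium, and 278 and 235 in the Sl/Sl endothelium, beside 272 to 317 in the 4 cluster libraries. Tpx2, which activates Aurora A on the spindle, had 18.4 and 18.2 in wild type against 31.3 and 31.9 in Sl/Sl, an even pair in each genotype.

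Kinetochore genes were uneven. The Ndc80 complex members Nuf2, Ndc80 and Spc25 had an unadjusted edgeR p under 0.05, whereas Spc24 had a log2 fold change of 0.10 ± 0.33. Nuf2 had an RPKM of 15.8 and 9.19 in wild type against 26.8 and 38.7 in Sl/Sl (log2 fold change 1.41 ± 0.41). Ndc80 had the largest log2 fold change of the 54, 2.37 ± 0.82, with 2.20 and 16.8 against 54.3 and 44.4. The wild type libraries of Ndc80 were far apart, the first being the lower. The 4 subunits of this complex thus gave fitted differences from 0.10 to 2.37.

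Of the kinesins, Kif11 had 6.76 and 7.99 in wild type endothelium, and 16.5 and 14.1 in the Sl/Sl endothelium (log2 fold change 1.06 ± 0.33), and Kif15, a second spindle motor, also had an unadjusted p under 0.05. Kif2c, which depolymerises microtubules at the kinetochore, had a negative value, with 13.1 and 8.94 against 11.3 and 1.71. The anaphase genes Ube2c and Cdca5, the condensin subunit Smc2, the checkpoint gene Mad2l1 and Birc5, or survivin, of the passenger complex made up the rest of the 15. Birc5 had 95.1 and 163 against 203 and 192. Genes of Cdk1, its cyclins and the Cdc25 phosphatases had no member at an unadjusted p under 0.05, with a median log2 fold change of 0.32.

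The size of this difference rested on the wild type libraries. The median log2 fold change of members was 0.40 without wild type endothelium replicate 1 and 1.01 without replicate 2. The number of members higher at an unadjusted p under 0.05 was 7 without wild type endothelium replicate 1, 26 without wild type endothelium replicate 2 and 9 without Sl/Sl endothelium replicate 1, where 2 members were lower. In the 8 fits that each left out 1 library, 43 to 51 of the 54 members were positive. Mesenchymal markers, 11 genes that the sort should not hold, summed to an RPKM of 583 and 50.3 in wild type against 32.0 and 413 in Sl/Sl endothelium, so that they were high in 1 library of each genotype. Of these 11 genes 7 to 10 were over 3 counts in each library. Erythroid markers summed to 65.0 and 63.8 in wild type against 57.0 and 138 in Sl/Sl endothelium, hematopoietic markers to 77.5 to 87.1 in all 4 libraries, macrophage markers to 5.39 to 29.5 with Csf1r at 0 to 5 counts, and endothelial markers to 3508 to 3979. The part of other cells in the difference of the mitosis genes was not tested.

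**Figure D4:**
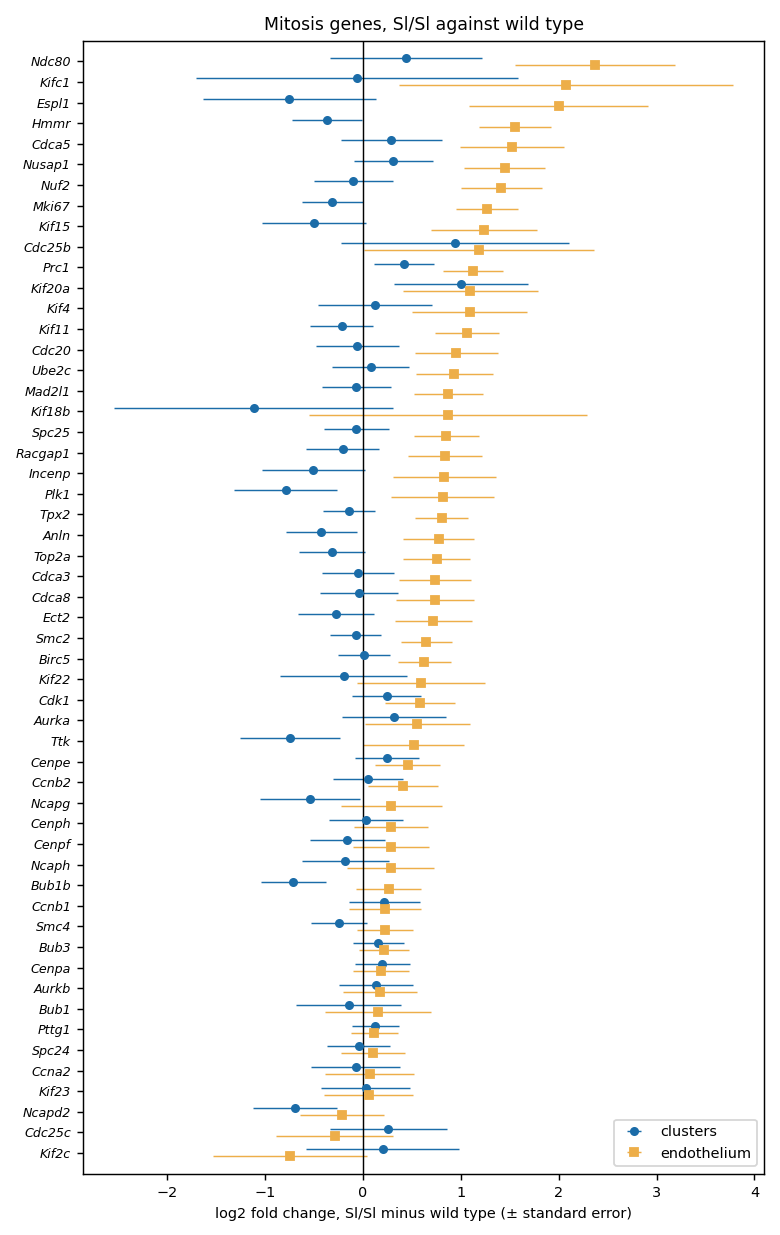
Log2 fold change of Sl/Sl minus wild type (x axis) with its standard error (bars) for each of the 54 mitosis genes (y axis, ordered by the value in endothelium), in clusters (circles) and endothelium (squares). In endothelium 51 squares lie to the right of 0, while the circles lie on both sides, 22 to the right and 32 to the left.

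In the clusters, where cells bear the Kit receptor, the mitosis genes did not separate by genotype. None of the 54 members passed by edgeR (0% of all genes did) or by DESeq2 (1.16% of all genes did). At an unadjusted p under 0.05 the count was 0 in both directions, beside 3.41% of all genes higher and 0.812% lower. The median log2 fold change of members was -0.065 against 0.030 for all genes, with 22 positive and 32 negative. Both Sl/Sl libraries were above both wild type ones for 2 members and below them for 12, beside 16.4% and 16.2% of all genes. A p above the threshold does not show that levels were equal, and the fitted differences of members ranged from -1.12 to 1.00.

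Bub1b, the checkpoint kinase relative BubR1 that restrains the anaphase promoting complex, had the smallest p of the 54 in clusters. Its RPKM was 60.4 and 40.8 in wild type against 29.7 and 31.1 in Sl/Sl clusters, a log2 fold change of -0.72 ± 0.33 (edgeR adjusted p = 1). Ncapd2 had 40.3 and 37.3 against 19.8 and 27.9 (log2 fold change -0.69 ± 0.43), and Plk1 36.5 and 27.2 against 24.2 and 11.9 (log2 fold change -0.79 ± 0.53). These 3 did not overlap between genotypes and were lower in Sl/Sl. All 5 condensin members had a negative value, from -0.69 to -0.075. Ttk, or Mps1, the kinase that starts the checkpoint, had 26.1 and 14.8 against 15.8 and 8.004, with overlap. On the positive side, Kif20a, a cytokinesis kinesin, had 5.45 and 13.3 against 24.5 and 12.7, with overlap, and Prc1 had 52.2 and 60.6 against 77.5 and 71.4 (log2 fold change 0.41 ± 0.31).

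Other cells differed between the cluster libraries. Endothelial markers summed to an RPKM of 600 and 227 in wild type against 1683 and 428 in Sl/Sl clusters, with all 15 over 3 counts in each library, and mesenchymal markers to 276 and 352 in wild type against 11.3 and 1576 in Sl/Sl clusters. Macrophage markers summed to 774 and 210 against 739 and 377, and erythroid markers to 138 and 70.3 against 424 and 55.0. Germ cell markers summed to 117 and 10.7 in wild type against 5.99 and 11.8 in Sl/Sl clusters. Summed RPKM of the mitosis genes was 5424 and 4359 in Sl/Sl clusters beside mesenchymal markers of 11.3 and 1576. In wild type clusters the sum was 4561 and 5187 beside 276 and 352. In wild type endothelium it was 2092 and 3279 beside 583 and 50.3, and in Sl/Sl endothelium 3954 and 3973 beside 32.0 and 413. The library with more mesenchymal markers had the lower sum in Sl/Sl clusters and wild type endothelium. It had the higher sum in wild type clusters and Sl/Sl endothelium. The part of these cells in the levels of mitosis genes was not tested. The median log2 fold change of members was -0.20 without Sl/Sl clusters replicate 1 and 0.055 without wild type clusters replicate 2, so its sign depended on which library was used.

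The interaction asked whether the genotype difference was larger in endothelium than in clusters. No member passed by edgeR (smallest adjusted p = 0.902, with 0% of all genes passing) or by DESeq2 (0.887% of all genes did). At an unadjusted p under 0.05, 7 members had a larger value in endothelium and 0 a smaller one, beside 1.62% and 3.67% of all genes. The median interaction of members was 0.79 on the log2 scale, where all genes had -0.096, and 50 of 54 were positive. Hmmr had the largest departure for its error, 1.92 ± 0.51, followed by Mki67 with 1.58 ± 0.44. Kif11 (1.28 ± 0.46), Nuf2 (1.52 ± 0.58), Tpx2 (0.95 ± 0.38), Anln (1.20 ± 0.51), the anillin that scaffolds the cleavage furrow, and Kif15 (1.73 ± 0.76) made up the 7. Anln had 27.0 and 15.9 in wild type clusters, 15.3 and 16.1 in Sl/Sl clusters, 12.3 and 14.9 in wild type endothelium, and 27.2 and 18.9 in the Sl/Sl endothelium. The median interaction was 0.50 without wild type endothelium replicate 1 and 1.08 without replicate 2, and the count of 7 was 3 without Sl/Sl clusters replicate 2, 3 without Sl/Sl endothelium replicate 1 and 18 without wild type endothelium replicate 2. A difference between cell types in the effect of Kitl loss was therefore not shown by the test for any member. This comparison uses all 8 libraries and shares them with those above.

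Further genes of cell division were taken as listed sets, chosen like the members with earlier results of these data known. Of 81 other mitosis genes (cohesin, further centromere and anaphase promoting complex subunits and others), 5 passed as lower and 0 as higher in wild type endothelium against wild type clusters, where their median log2 fold change was -0.77, beside 3.68% of all genes lower. Ckap2l, a spindle protein, had a log2 fold change of -1.76 ± 0.39 there (edgeR adjusted p = 0.0386). Of 38 DNA replication genes, which act in S phase, 6 passed as lower and 0 as higher, with a median of -0.77, beside the same 3.68%. Mcm5 and Mcm7, subunits of the replicative helicase, fell by 1.30 and 1.43 on the log2 scale (edgeR adjusted p = 0.0302 and 0.0468). Negative values were given by 68 of the 81 other mitosis genes and by 35 of the 38 replication genes.

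Between the genotypes of the endothelium neither list passed the test. Of the 81 other mitosis genes 55 had a positive and 26 a negative value for Sl/Sl minus wild type, with a median log2 fold change of 0.24, and of the 38 DNA replication genes 19 had a positive and 19 a negative one, with a median of -0.0036. By edgeR 0 genes passed in either list, and by DESeq2 1 other mitosis gene was higher and 1 replication gene lower. At an unadjusted p under 0.05, 7 other mitosis genes were higher and 2 lower, and 1 replication gene was higher and 1 lower, beside 1.83% of all genes higher and 2.34% lower. Summed RPKM of the replication genes was 1919 and 2032 in wild type endothelium, 1986 and 1856 in the Sl/Sl endothelium, and 3037 to 3307 in the clusters. The replication genes therefore overlapped between the endothelium genotypes while lying below the clusters in both. In Sl/Sl endothelium against Sl/Sl clusters, 5 of 38 replication genes passed as lower by edgeR, with a median of -0.71, and so did 1 of 81 other mitosis genes, beside 1.84% of all genes. For the clusters, medians of Sl/Sl minus wild type were -0.085 for other mitosis genes and -0.15 for replication genes, with 0 passing in either list by edgeR.

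Exon length was set beside the fold changes. With all tested genes split into 3 bins of near equal size by exon length, the medians of all genes for Sl/Sl minus wild type in endothelium were -0.018, -0.0031 and 0.010 from shortest to longest, and those of members 0.56, 0.72 and 0.77. In clusters the medians were 0.12, 0.019 and -0.084 for all genes and 0.052, -0.068 and -0.25 for members. For the interaction they were -0.21, -0.10 and 0.074 for all genes and 0.36, 0.90 and 0.97 for members, so that both shifted upward with length there while members stayed above all genes in each bin. The part of exon length in the interaction was not tested. Exons of 5 members overlap those of a gene on the opposite strand: Ccna2 with Exosc9 (13.4% of its exon bases), Cdc20 with Elovl1 (2.91%), Kif20a with Cdc23 (28.6%) and Brd8 (5.86%), Ncapg with Lcorl (20.8%), and Nusap1 with Oip5 (7.03%). The strand setting of the counting was not given, so reads of these pairs cannot be told apart in the overlapping part.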

How the data were processed

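RNA from 8 samples of 100 sorted cells was amplified by SMARTSEQ2 and sequenced as 75 base read pairs. According to the methods of the study, the authors aligned reads to mm9 with STAR 2.4.2a and counted them on genes with featureCounts of Subread 1.4.5; their own tests used DESeq2 1.12.4, per the submitters' processing notes. The deposited values are whole-number counts per gene without normalization or pooling. The annotation, the strand setting and the handling of reads matching several places are not given in the sources used here, nor is it given which of the sorting experiments each library came from. P-values set a group difference against the spread between these libraries, which edgeR estimates with information shared between genes. Reads without molecular identifiers do not separate amplification error from counting error.

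Groups came from the sample titles. Counts were tested in R 4.3.3 with edgeR 4.0.16 (TMM, filterByExpr, quasi-likelihood F-test) in 1 fit of 8 libraries and 4 group means, with Benjamini-Hochberg adjustment over the 13908 genes kept and a threshold of 0.1. The standard error is the log2 fold change divided by the root of F. RPKM used total counts on genes and the exon lengths of the table. DESeq2 1.42.0, other scaling, filters, thresholds and sample sets, a replicate block and leaving out each library were alternatives. The edgeR fit was tested on simulated data only for endothelium against clusters averaged over genotypes. The changes put into those data were larger than the fitted change of any member there. The simulation therefore does not cover the comparisons of 2 against 2 libraries.

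The members and the other lists were chosen with earlier results of these data known. Members named in full are those with the 6 smallest p in each genotype comparison and the interaction, up to 6 past the threshold in each cell type comparison, the 3 highest and 3 lowest by RPKM, and Mki67, Top2a, Cdk1, Ccnb1, Plk1, Aurkb, Bub1b, Cenpa, Birc5 and Cdc20. Ndc80, Spc25, Kif2c and Pttg1 were named after their values were seen, and Ccna2 was also named outside these rules. Gene positions are those of the table (mm9).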

Additional observations from a re-analysis of the deposited data

How the results depend on the processing

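No member passed in the clusters or in the interaction under any alternative, where the count was 0 throughout. In endothelium, Sl/Sl against wild type, the count of 0 became 3 with DESeq2 on 8 libraries and 3 without a filter on low counts. In wild type endothelium against wild type clusters, the count of 14 became 26 with DESeq2 on 8 libraries, 23 without a filter, 7 at an adjusted p under 0.05 and 9 with edgeR on the compared libraries, and ranged from 5 (without wild type clusters replicate 2 or wild type endothelium replicate 1) to 16 (without wild type endothelium replicate 2) when 1 library was left out. In Sl/Sl endothelium against Sl/Sl clusters, the count of 0 became 1 with DESeq2 on 8 libraries or on the compared libraries and 2 without a filter, and ranged from 0 to 1 when 1 library was left out, with 1 member without wild type clusters replicate 1 or 2 or Sl/Sl endothelium replicate 1. Averaged over genotypes, the count of 18 became 9 at an adjusted p under 0.05 and ranged from 8 to 20 when 1 library was left out. Promoters with both motifs numbered 16 instead of 32 in the narrower window. The cause was not tested for any of these.

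Replicate numbers are shared by the groups, but whether same-numbered libraries came from the same sorting experiment is not known. Such libraries correlated in their deviations from the group means by -0.11 to 0.16, over 0.1 in only 1 pair of groups. A weak correlation does not show that they were sorted apart. With the replicate block the counts were 0 in the clusters, the endothelium, the interaction and Sl/Sl endothelium against Sl/Sl clusters, 14 in wild type endothelium against wild type clusters and 17 in the average; with the block within each cell type the last 3 were 1, 20 and 22.

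Of the log2 fold changes of named members under the alternatives, 472 kept their direction and their side of the threshold, 5 passed it newly, 9 no longer passed it, and 0 reversed. Precision rested on 2 libraries a group, with a biological coefficient of variation of 0.817 common to all genes tested.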
